A study of Mus musculus with 3 samples.

Results

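Spp1 encodes osteopontin, a secreted phosphoprotein of the extracellular matrix. It was taken as a single row of the count matrices, 1 of 27998 genes, and followed through every class of cells in 3 single-cell libraries of sorted mouse suprarenal aorta. The gene was chosen with its pattern in these data known, so its levels are given as a description.

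The aneurysm library pooled cells of 4 Apoe-/- mice on the C57Bl/6 background that were exposed to cigarette smoke, were fed a high fat (Western) diet for 16 weeks and had a measurable aortic dilatation. The room air library pooled 5 Apoe-/- mice on the same background and diet for 16 weeks without smoke. The control library pooled 5 C57Bl/6 mice with intact Apoe on chow. Ages are not given in the sources used here. Each group is 1 pooled library, so no value below has a replicate or a test. All intervals are 95% intervals that cover counting error only. Those of levels and ratios treat counted transcripts as independent of the cells that held them, and an overlap of intervals is not a test. Smoke exposure came together with the selection of mice with a dilatation, and loss of Apoe came together with the diet, so the members of each pair cannot be told apart. CD45+CD31- and CD45-CD31+ cells were sorted, so the sort set the number of endothelial cells against leukocytes.

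Osteopontin binds integrins through an RGD motif and a neighbouring site that thrombin and metalloproteinases expose, and it also binds CD44. It recruits and retains macrophages and restrains mineral deposition, and in bone it is made by osteoblasts and osteoclasts. In arterial lesions it is known as a product of macrophages and of smooth muscle cells that have left the contractile state. Smooth muscle cells were not among the sorted populations.

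On GRCm38 (mm10), Spp1 (ENSMUSG00000029304) lies on the plus strand of chromosome 5 from 104435118 to 104441050. It stands at the end of a row of genes for mineralised-tissue glycoproteins. Of its neighbours, Dspp and Dmp1 of dentin, Ibsp of bone and Mepe of bone matrix had 0 UMIs each (unique molecular identifiers, the counted transcripts) in all cells kept, and Pkd2 on the other side, which encodes the channel polycystin, had 110 UMIs. Spp1 itself had 71790 UMIs. The row of bone and dentin genes was thus not detected beside it. The 250 bases before the RefSeq start of Spp1 (GRCm38.p6, chr5:104434861-104435110, plus strand) are shown because RUNX and ETS factors, whose levels are given further on, are known to act through this promoter. Capitals mark the searched letters of a RUNX motif (AACCACA) and of an ETS motif (AGGAAG) on either strand.
Spp1 promoter: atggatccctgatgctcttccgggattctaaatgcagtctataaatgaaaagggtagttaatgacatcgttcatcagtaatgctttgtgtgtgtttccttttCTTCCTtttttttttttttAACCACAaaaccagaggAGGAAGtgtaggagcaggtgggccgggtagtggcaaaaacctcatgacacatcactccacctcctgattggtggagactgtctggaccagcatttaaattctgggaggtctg
The RUNX letters lie 129 bases before the start and occur in 4.4% of 32851 promoter windows of the same length searched on both strands. The ETS letters lie 148 bases (minus strand) and 112 bases (plus strand) before it and occur in 29.5% of windows. The letters of an AP-1 motif (TGANTCA) were not in this window, and occur in 6.75% of windows. None of these motifs overlap, and a match is a description of the letters.

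The matrices held 2842 barcodes in aneurysm, 1851 in room air and 782 in control, of which 2775, 1821 and 774 cells were kept. The depth was lowest in control, with a median of 4405 UMIs per kept cell in aneurysm, 3835 in room air and 2681 in control. Apoe, the knocked-out gene, had 13.03 CPM (UMIs of a gene over all UMIs of the cells summed, on the customary scale) in aneurysm, 17.1 CPM in room air, against 10510 CPM in control, which matches the labelled genotypes. Libraries shared 5 barcodes (aneurysm and room air), 4 (room air and control) and 0 (aneurysm and control). Ptprc, which encodes CD45, had a UMI in 75.6% of aneurysm cells, 74.3% of room air cells and 49.5% of control cells. Cells fell into 23 clusters, drawn with Spp1 left out, and a cluster is called by a class name only from marker genes.

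Over all cells kept, Spp1 had 34980 UMIs in aneurysm, 36793 in room air and 17 in control, which is 2171 CPM (2148 to 2194), 3766 CPM (3727 to 3804) and 6.68 CPM (3.89 to 10.7). Both Apoe-/- libraries carried the transcript at a high level, and the control library held almost none. The level in aneurysm was 0.576 of that in room air (0.568 to 0.585), and that in room air was 564-fold that in control (352 to 967). The 17 control UMIs sat in 13 cells: 7 macrophage-like, 3 of the cDC1-like class of cross-presenting dendritic cells, 1 NK-like and 2 dividing. The highest of them held 4 UMIs.

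Most of the transcript came from few cells. In aneurysm, 19 of 2775 cells (0.685%) held 50% of all Spp1 UMIs, and in room air 15 of 1821 cells (0.824%) did. The highest cell held 2548 Spp1 UMIs in aneurysm, 3728 in room air and 4 in control. Spp1 made up as much as 17.05% of all UMIs of an aneurysm cell and 13.6% of those of a room air cell. Cells with 20 Spp1 UMIs or more numbered 140 in aneurysm (5.04% of cells, 4.26 to 5.93%), 118 in room air (6.48%, 5.39 to 7.71%) and 0 of 774 in control, where 3 counts allow a share of up to 0.388%. These cells held 89.3% of the Spp1 UMIs in aneurysm and 82.4% in room air. The intervals of the share overlapped between the Apoe-/- libraries. The limit of 20 is a point on a range, and 104 aneurysm cells and 160 room air cells lay between 10 and 40 UMIs. It is the same count in each library and was not adjusted for depth.

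**Figure D1:**
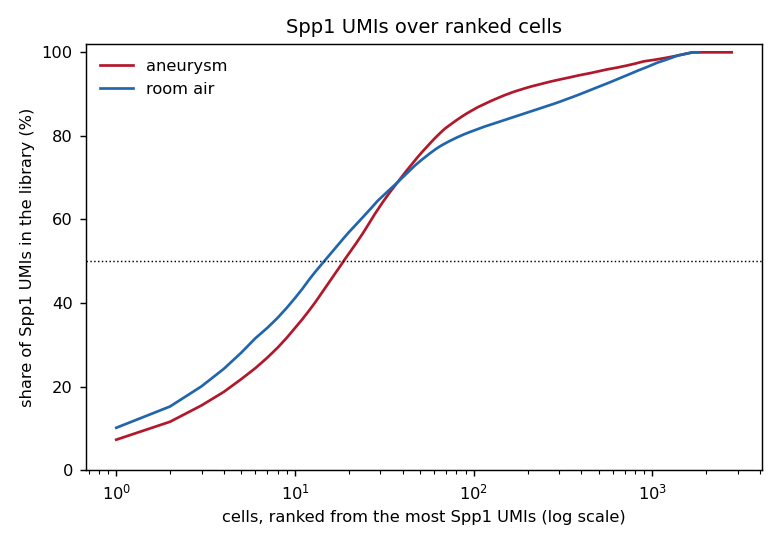
Cumulative share of the Spp1 UMIs of a library (vertical axis, %) over its cells ranked from the most Spp1 UMIs (horizontal axis, log scale), for aneurysm and room air; the dotted line marks 50%. The curves pass 50% at 19 aneurysm cells and 15 room air cells, and the room air curve reaches 90% later (394 cells, against 155 in aneurysm).

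Outside these cells a low level of Spp1 was present everywhere in both Apoe-/- libraries. B and T cells were used to read RNA free in the droplets. Activated T cells are known to make osteopontin, and the highest T-cell-like cell held 48 Spp1 UMIs in aneurysm and 24 in room air. The B-cell-like class had 170 CPM in aneurysm (36.7% of 458 cells with a UMI), 717 CPM in room air (82.3% of 226 cells) and 0 UMIs in 100 control cells. T-cell-like cells had 203 CPM in aneurysm (39.8% of 595 cells), 725 CPM in room air (84.8% of 421 cells) and 0 UMIs in 97 control cells. Pooled, B and T cells stood at 189 CPM in aneurysm, 722 CPM in room air, against 0 CPM in control, where 0 of 197 cells had a UMI. At their median depth of 1561 UMIs, 3 counts allow a share of cells with a UMI of up to 1.52%, which sets no limit on the cells that express the gene. The low level in aneurysm was 0.262 of that in room air (0.237 to 0.289). Cells thinned to 1000 UMIs had a Spp1 UMI in 16% of cases in aneurysm and 51.9% in room air, so the gap was present at equal depth.

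The low level in B and T cells was set against C1q, a macrophage transcript also present in them. For each 100 UMIs of the C1q genes (C1qa, C1qb and C1qc, complement genes of macrophages), B-cell-like cells held 31.8 Spp1 UMIs in aneurysm and 40.3 in room air. T-cell-like cells held 35.3 in aneurysm and 41.7 in room air, and all cells together held 34.0 in aneurysm and 45.3 in room air. Against Gpnmb the values lay further apart: B-cell-like cells held 1329 Spp1 UMIs per 100 Gpnmb UMIs in aneurysm and 3185 in room air, T-cell-like cells 1795 and 2040, and all cells 1232 and 2102. These rest on 13 to 40 Gpnmb UMIs in each class, and no test was made of a common source. A share of cells with a Spp1 UMI is read against the B and T cells of the same library.

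Read in that way, 8 further classes or clusters lay near the B and T cell level. These were the cDC1-like, cDC2-like and mature dendritic cells, NK-like cells, ILC2-like cells (type 2 innate lymphoid cells), endothelial-like cells, nonclassical monocyte-like cluster 19 and unnamed cluster 13. Their levels ran between 172 CPM (endothelial-like) and 318 CPM (NK-like) in aneurysm and between 575 CPM (cluster 13) and 875 CPM (ILC2-like) in room air. In the NK-like cells of aneurysm 1 cell held 20 of the 84 UMIs. The share of cells with a UMI ran between 41.1% and 78.7% in aneurysm and between 80% and 100% in room air, with median depths of 2446 to 9929 UMIs over both libraries. After thinning to 1000 UMIs it ran between 16.5% and 18.9% in aneurysm and between 46.4% and 56.1% in room air, as in B and T cells. Detection in 78.7% of aneurysm cDC1-like cells, the deepest of these classes, thus came with a level of 172 CPM, no higher than in B and T cells. Smaller classes held too few cells for a level to be read. Fibroblast-like cells had 5 UMIs in 10 aneurysm cells and 52 UMIs in 8 room air cells (112 CPM and 743 CPM). Plasmacytoid dendritic (pDC-like) cells had 177 CPM in aneurysm and 3747 CPM in room air, but 1 of the 8 room air cells held 180 of the 204 UMIs.

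**Figure D2:**
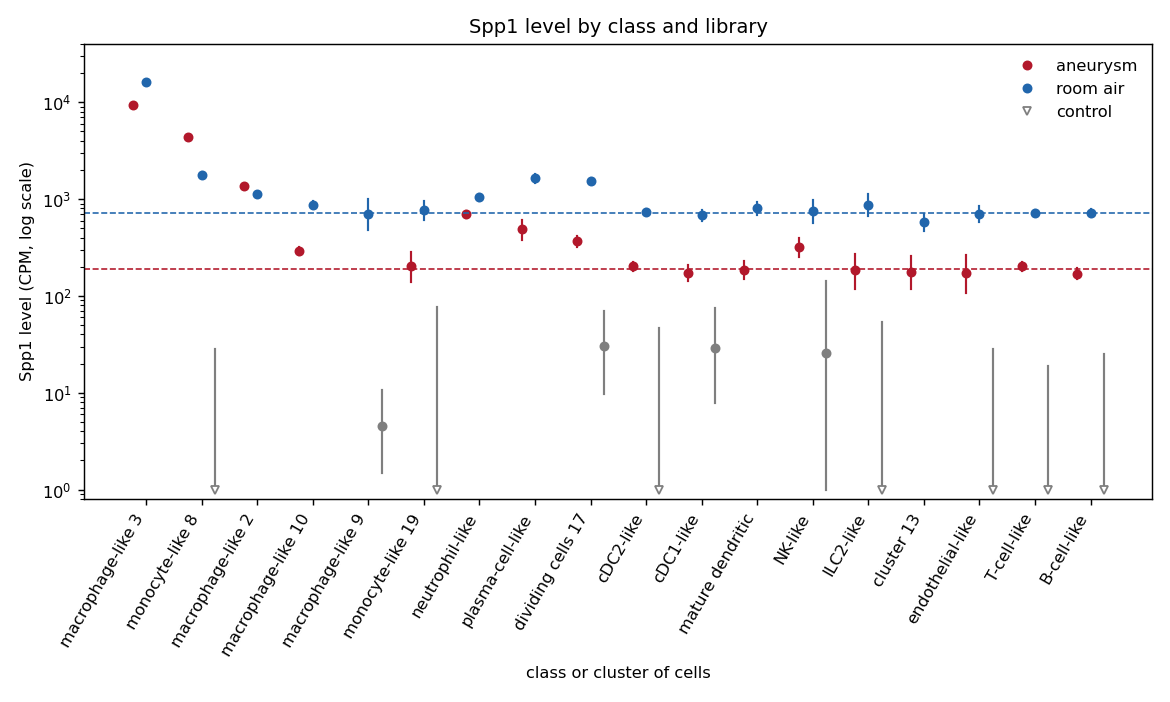
Spp1 level in CPM (vertical axis, log scale) by class or cluster of at least 10 cells, for aneurysm, room air and control; bars are exact Poisson intervals, open triangles mark 0 UMIs, and dashed lines mark the level of B and T cells in aneurysm (189 CPM) and room air (722 CPM). Clusters 3 and 8 stand above the dashed lines in both libraries, most lymphoid and dendritic classes lie on them, and the control points lie at or below 30.2 CPM.

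Macrophage-like cells held most of the Spp1 transcripts. Their level was 4498 CPM in aneurysm (4443 to 4554, 657 cells), 7282 CPM in room air (7202 to 7363, 572 cells) and 5.88 CPM in control (2.36 to 12.1, 312 cells). They held 73.1% of the Spp1 UMIs of the aneurysm library, 85.7% of those of room air and 41.2% of the 17 in control. The level in aneurysm was 0.618 of that in room air (0.608 to 0.628), and the level in room air was 1239-fold that in control (601 to 3083). Different clusters made up the class: 293 of the 312 control cells lay in cluster 9 (Lyve1, Cd163, Pf4, genes of resident macrophages), which held 8 aneurysm and 11 room air cells. Spp1 in cluster 9 was 287 CPM in aneurysm, 703 CPM in room air, against 4.54 CPM in control. The room air value, from 32 UMIs in 11 cells, lay near that of B and T cells. In aneurysm 1 of the 8 cells held 8 of the 16 UMIs, too few for a level to be read.

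Within each Apoe-/- library the 4 macrophage-like clusters differed in their Spp1, and cluster 3 was the highest. Cluster 3 was led, beside Spp1 itself, by Mmp12 (macrophage elastase), Gpnmb (a lysosomal membrane glycoprotein), Trem2 (a lipid-sensing receptor) and Lpl (lipoprotein lipase), which are known from lipid-laden macrophages. It had 9272 CPM of Spp1 in 267 aneurysm cells, 16124 CPM in 191 room air cells and 2 UMIs in 7 control cells. The ratio of aneurysm to room air was 0.575 (0.565 to 0.585). Cells with 20 UMIs or more were 87 in aneurysm (32.6%, 27 to 38.6%) and 84 in room air (44.0%, 36.8 to 51.3%). The share was lower in aneurysm, the intervals overlap, and the difference was not tested. The cells of this cluster ran between 0 and 2548 UMIs in aneurysm, with a median of 5, and between 1 and 3728 in room air, with a median of 16. The libraries therefore overlapped over nearly the whole range, and 11 aneurysm cells and 10 room air cells held 50% of the cluster's Spp1. At the depth of a median cell, the free RNA of B and T cells alone would give 1.62 UMIs in aneurysm and 5.93 in room air. Among cells under 20 UMIs the level was 494 CPM in aneurysm and 952 CPM in room air, still above the B and T cells of each library.

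Cluster 2, led by Ccl12 (a monocyte chemokine), Ifit3 (an interferon-induced gene) and Cx3cr1 (the fractalkine receptor), had 1366 CPM in aneurysm and 1121 CPM in room air. It carried 9 aneurysm cells of 209 and 11 room air cells of 275 with 20 UMIs or more. The highest aneurysm cell had 841 UMIs, and 2 cells held 50% of the cluster's UMIs there, against 38 cells in room air. Cells under 20 UMIs had 244 CPM in aneurysm and 829 CPM in room air, against 189 CPM and 722 CPM in B and T cells. They thus also lay above B and T cells, though by less than such cells of cluster 3, and the difference was not tested. Cluster 10, led by Ccl8, Cd209f and Folr2 (the folate receptor of resident macrophages), had 292 CPM in aneurysm and 873 CPM in room air. Its Spp1 was low against its C1q: 1.75 Spp1 UMIs per 100 C1q UMIs in aneurysm and 5.6 in room air, against 74.5 and 130 in cluster 3 of the same libraries. High C1q, which marks all these macrophages, was thus present in cluster 10 without high Spp1.

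**Figure D3:**
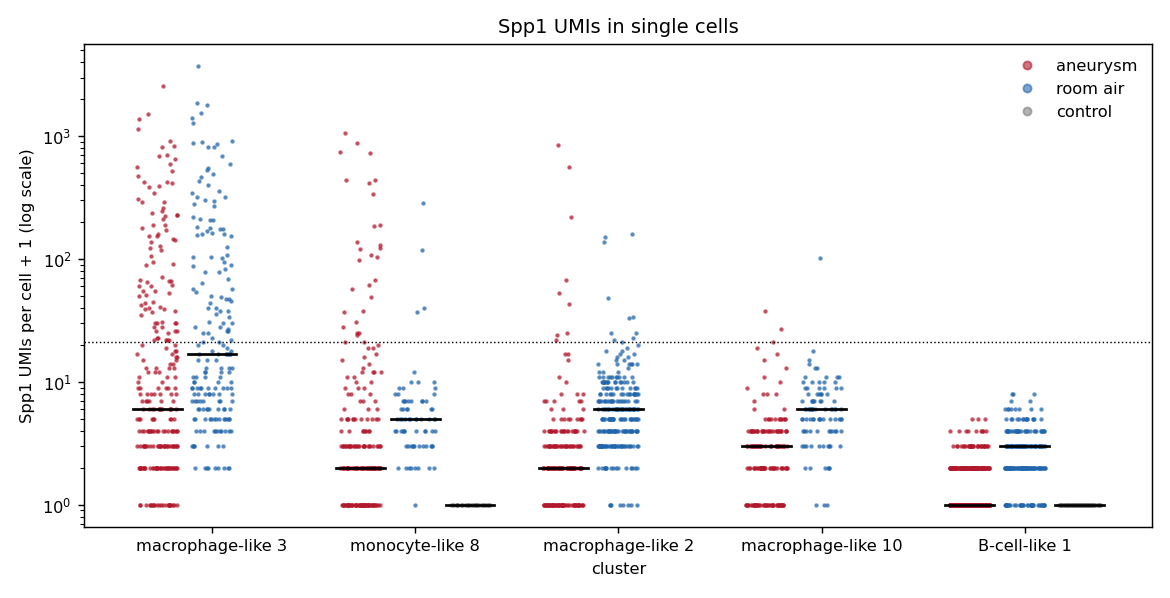
Spp1 UMIs per cell plus 1 (vertical axis, log scale) in clusters 3, 8, 2 and 10 and in B-cell-like cluster 1, for aneurysm, room air and, where at least 10 cells were present, control; each point is a cell, black lines are medians, and the dotted line marks 20 UMIs. The highest cells of cluster 3 hold 2548 UMIs in aneurysm and 3728 in room air, no B-cell-like cell holds more than 7, and control cells lie at 0.

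Beside the macrophages, a set of cells in monocyte-like cluster 8 carried Spp1. The cluster was led by Chil3, Hp and Plac8, genes of classical monocytes, and had 4352 CPM in 216 aneurysm cells, 1789 CPM in 72 room air cells and 0 UMIs in 38 control cells. The ratio of aneurysm to room air was 2.43 (2.26 to 2.63), the opposite direction to cluster 3. Cells with 20 UMIs or more were 30 in aneurysm (13.9%, 9.57 to 19.2%), 4 in room air (5.56%, 1.53 to 13.6%) and 0 in control. The median cell held 1 UMI in aneurysm and 4 in room air, so the higher level in aneurysm lay in few cells, and 5 of them held 50% of the UMIs. The class to which these cells belong depended on how the clusters were drawn. At a lower clustering resolution 20 of the 30 aneurysm cells fell among macrophage-like cells, at a higher one 20, with Spp1 kept among the clustering genes 19, without doublet removal 19 and by each cell's own markers 23. In each of these 5 alternatives the monocyte-like level, free RNA included, was lower in aneurysm than in room air (ratios 0.318 to 0.971). Free RNA was not subtracted there, and B and T cells stood at 189 CPM in aneurysm and 722 CPM in room air. The direction of this level in monocyte-like cells is thus not a stable result of these data. Its direction above free RNA was not tested in the alternatives.

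In their summed classical monocyte and lipid-associated markers these cells stood between the other cells of the cluster and the high cells of cluster 3. The 30 aneurysm cells with 20 UMIs or more had 5187 CPM of summed classical monocyte markers, against 8855 CPM in the other 186 cells of the cluster and 591 CPM in the 87 such cells of cluster 3. Their summed markers of lipid-associated macrophages, Spp1 not counted, were 16910 CPM, against 7388 CPM in the other cells of the cluster and 24400 CPM in those of cluster 3. Summed resident macrophage markers of the 30 cells did not lie between, at 1158 CPM, against 605.6 CPM in the other cells and 495.5 CPM in those of cluster 3. Gpnmb had 825 CPM in the 30 cells and 200 CPM in the other cells. Arg1, which encodes the arginine-degrading enzyme arginase, had 769 CPM in the 30 cells, 6.75 CPM in the other cells and 20.7 CPM in the high cells of cluster 3. The 4 room air cells showed the same order in the classical monocyte and lipid-associated lists. They had 384 CPM of Arg1 against 7.86 CPM in the other 68. Resident macrophage markers went the other way there, at 274.2 CPM against 670.3 CPM. Arg1 was picked after its values were seen, and the cells were picked by their Spp1, so these levels are a description. Their median depth was 7539 UMIs, against 6142 in the other aneurysm cells of the cluster.

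Taking macrophage-like and monocyte-like cells as 1 group removes the question of where the border lies. Their Spp1 level was 4375 CPM in 915 aneurysm cells, 6662 CPM in 677 room air cells and 5.11 CPM in 370 control cells. They held 93.6% of the Spp1 UMIs of aneurysm and 88.0% of those of room air. The ratio of aneurysm to room air was 0.657 (0.647 to 0.667), and it ran between 0.627 and 0.657 in the 5 alternatives. Cells with 20 UMIs or more were 129 in aneurysm (14.1%, 11.9 to 16.5%), 100 in room air (14.8%, 12.2 to 17.7%) and 0 in control. The intervals of the share of high cells overlapped between the Apoe-/- libraries, while the summed level was lower in aneurysm. The limit of 20 UMIs was not adjusted for depth or for free RNA, which both differed between these libraries. The shares are therefore not like for like. Intervals of the share count cells and those of the level count UMIs, so their widths cannot be compared. Neither difference was tested. With the B and T cell level subtracted the ratio was 0.705, and as a mean over cells of each cell's CPM it was 0.853.

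Some other classes held Spp1 above the B and T cells, and neutrophil-like and plasma-cell-like cells held C1q with it. Neutrophil-like cells had 700 CPM in aneurysm and 1048 CPM in room air, and carried 7965 C1q UMIs in 89 aneurysm cells and 5831 in 75 room air cells. Their C1qa was 3357 CPM in aneurysm and 3852 CPM in room air. Plasma-cell-like cells had 487 CPM in 14 aneurysm cells and 1646 CPM in 20 room air cells, with C1qa at 974 CPM and 1522 CPM, against 165 CPM and 546 CPM in T-cell-like cells. Unnamed cluster 17, with Top2a and Birc5, genes of mitosis, among its leading ones, had 365 CPM in aneurysm, 1547 CPM in room air, against 30.2 CPM in control, where 2 cells held its 5 UMIs. The part of macrophage RNA or of mixed droplets in these levels was not tested.

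**Figure D4:**
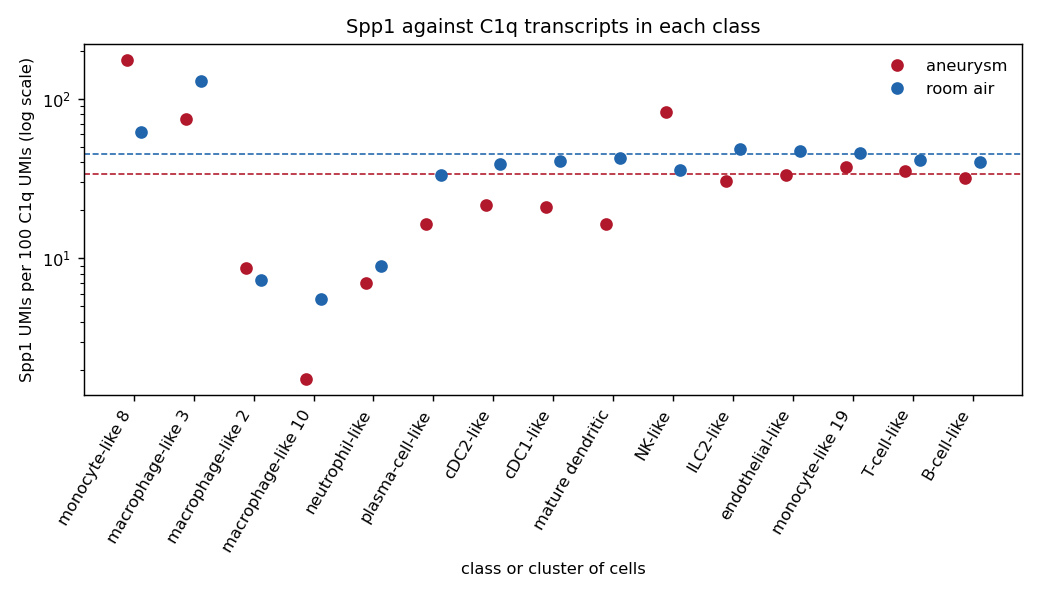
Spp1 UMIs per 100 C1q UMIs (vertical axis, log scale) by class or cluster, for aneurysm and room air; dashed lines mark all cells of the library (34.0 and 45.3). Clusters 8 and 3 lie above the lines, and clusters 2 and 10 and neutrophil-like cells below. B-cell-like and T-cell-like cells lie near the lines (31.8 and 35.3 in aneurysm, 40.3 and 41.7 in room air). In aneurysm NK-like cells also lie above (83.2), and cDC1-like, cDC2-like, mature dendritic and plasma-cell-like cells below (16.4 to 21.7).

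Genes for the proteins that receive, cleave and modify osteopontin were read in macrophage-like cells, as the number past 2-fold among those with 20 UMIs or more over both libraries. For aneurysm over room air, 0 of 9 measured receptor genes were past 2-fold in either direction, beside a background over all 10434 genes of 0.872% higher and 1.96% lower. Cd44, which encodes the non-integrin receptor, had 113 CPM in aneurysm and 118 CPM in room air, and Itgb5, an integrin beta chain, 200 CPM and 223 CPM. For room air over control, 4 of 8 measured receptor genes were higher and 0 lower, beside a background over 9584 genes of 12.8% higher and 5.63% lower. The median log2 ratio was 0.77 over the 8 receptor genes and 0.08 over all genes. Itgb5 had 223 CPM in room air, against 74.7 CPM in control, a ratio of 2.98 (2.40 to 3.75). Itgav, the alpha chain that pairs with it, had 34.9 CPM and 16.8 CPM, a ratio of 2.08 (1.30 to 3.50). Itga5, the alpha chain of the fibronectin receptor, had 31.6 CPM and 10.9 CPM, a ratio of 2.90 (1.64 to 5.59). Itgb7, a leukocyte beta chain, had 73.2 CPM and 17.6 CPM, a ratio of 4.15 (2.67 to 6.80). Cd44 was close in both (118 CPM and 105 CPM, ratio 1.13).

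Across clusters, receptor genes lay both where Spp1 was high and elsewhere. Itgb5 was highest in cluster 3, at 261 CPM in aneurysm and 280 CPM in room air, with a median over clusters of 41.3 CPM and 37.5 CPM. Itga5 was highest in endothelial-like cells (139 CPM in aneurysm and 106 CPM in room air), with cluster 3 second. Itgb7 was highest in unnamed cluster 13 in aneurysm (744 CPM) and in ILC2-like cells in room air (875 CPM), and Itgb3, the platelet and osteoclast beta chain, was highest in ILC2-like cells (95.7 CPM and 181 CPM). Cd44 was 259 CPM in aneurysm, 260 CPM in room air, against 216 CPM in control in monocyte-like cluster 8, and 48.9 CPM, 39.8 CPM and 6.83 CPM in B-cell-like cells. Genes of the ligand and of its receptors were thus measured in partly different cells.

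**Figure D5:**
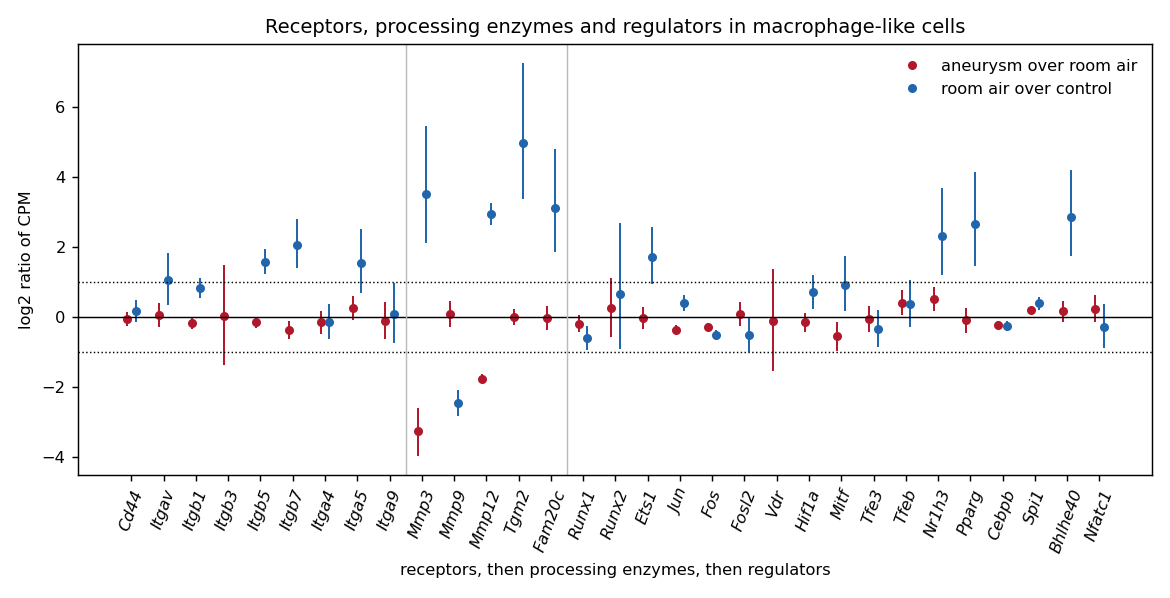
Log2 ratio of CPM in macrophage-like cells (vertical axis) for receptor, processing and regulator genes with 20 UMIs or more, for aneurysm over room air and room air over control; bars are exact conditional binomial intervals, dotted lines mark 2-fold, and grey lines part the lists. Between aneurysm and room air Mmp3 and Mmp12 alone lie past 2-fold, both lower in aneurysm. For room air over control 4 of 8 receptor, 4 of 5 processing and 4 of 16 regulator genes lie above 2-fold. The share over all genes was 12.8%.

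Of the genes that cleave or modify osteopontin, 5 were measured in macrophage-like cells. In aneurysm over room air 0 were higher and 2 lower, beside a background over all genes of 0.872% higher and 1.96% lower. Mmp12 had 204 CPM in aneurysm and 694 CPM in room air, a ratio of 0.294 (0.274 to 0.314). In cluster 3 it had 415 CPM in aneurysm and 1530 CPM in room air, a ratio of 0.271 (0.252 to 0.291), so the level was lower in aneurysm within the cluster too. Mmp3 (stromelysin) had 4.05 CPM in aneurysm and 38.8 CPM in room air, but B-cell-like cells of room air also had 36.4 CPM. In room air over control 4 were higher and 1 lower, beside a background of 12.8% higher and 5.63% lower. Tgm2, which encodes the transglutaminase that crosslinks osteopontin, had 78.8 CPM in room air, against 2.52 CPM in control, from 3 UMIs. Fam20c, which encodes the kinase that phosphorylates it, had 36.7 CPM and 4.197 CPM, a ratio of 8.75 (3.67 to 27.3), and was highest in cluster 3 in both Apoe-/- libraries. Mmp9 (gelatinase) was lower, at 28.4 CPM in room air, against 157 CPM in control, where cluster 9 held 182 of its 187 UMIs.

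Of the genes for factors known or proposed to act on Spp1, 0 of 17 measured in macrophage-like cells were past 2-fold for aneurysm over room air. The background over all genes was 0.872% higher and 1.96% lower. For room air over control 4 of 16 were higher and 0 lower, beside a background of 12.8% higher and 5.63% lower. Bhlhe40, a helix-loop-helix factor, had 42.3 CPM in room air, against 5.88 CPM in control, a ratio of 7.19 (3.42 to 18.1). Pparg and Nr1h3, lipid-sensing nuclear receptors, had 31.6 CPM and 29.3 CPM in room air and 5.04 CPM and 5.88 CPM in control, ratios of 6.28 (2.81 to 17.4) and 4.99 (2.35 to 12.7). Ets1 had 44.1 CPM in room air, against 13.4 CPM in control, but B-cell-like cells had 326 CPM in room air, against 266 CPM in control. Runx1 (70.5 CPM and 107 CPM) and Spi1 (472 CPM and 360 CPM) stayed within 2-fold. In cluster 3, for aneurysm over room air, 1 of 16 regulators was past 2-fold, Nfatc1, with 23.1 CPM in aneurysm and 11.2 CPM in room air (ratio 2.07, 1.22 to 3.63), beside a background of 1.52% higher and 1.77% lower. In cluster 8, for aneurysm over room air, 0 of 7 receptor and 0 of 16 regulator genes were past 2-fold. Of 5 processing genes there 0 were higher and 2, Mmp3 and Mmp12, lower. The background was 5.4% higher and 3.26% lower. As the macrophage-like cells of control were almost all of cluster 9, the ratios of room air over control compare different kinds of macrophage.

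Genes with the pattern most like that of Spp1 were sought over 33 sums of a class within a library, among 9912 genes, by Pearson's r of log2(CPM + 10). The points share libraries and free RNA, so r is a description. Gpnmb was first (r = 0.90), followed by Ccl8 (0.83), AA467197 (0.78), Syngr1 (0.77) and Abcg1 (0.77), the last of which encodes a cholesterol exporter of macrophages. Trem2 (0.74), Ms4a7 (0.72) and the chemokines Ccl7 (0.76) and Ccl12 (0.74) were among the 15 highest. Jchain (0.76), a gene of plasma cells, and Saa3 (0.74), an acute-phase gene, were also among them. Without the control library 4 of the 15 remained, with Trem2 first (0.91) and Gpnmb still among the 15 (0.86), so the list rested in large part on the low values of control. Gpnmb had 777 CPM in cluster 3 in aneurysm and 749 CPM in room air, and 0 UMIs over all control cells.

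Within cluster 3, correlations of Spp1 with other genes across cells were weak. Among the highest over 3982 genes were Ctsl (a cathepsin), with Spearman's rho of 0.30 in 267 aneurysm cells and 0.29 in 191 room air cells, and Crip1, with 0.33 and 0.20. Among the lowest were genes of antigen presentation by MHC class II, with Cd74 at -0.34 and -0.20 and H2-Eb1 at -0.32 and -0.24. With sparse counts and values of this size, these are given as values and not as a finding. Cd74 had 11230 CPM in the 87 high cells of aneurysm and 24060 CPM in the other 180 cells of the cluster, and 11250 CPM and 17840 CPM in the 84 and 107 room air cells. As Cd74 was picked by its correlation with Spp1 in these same cells, this split by Spp1 is no separate result.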

How the data were processed

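The deposited matrices hold raw UMI counts for each gene and barcode, without normalization. Per the labels' protocols the chemistry was 10x 3' v2. Cell Ranger, STAR and the build mm10 are named in the submitters' processing notes. Versions are not given in the sources used here. Barcodes with at least 200 genes and at most 10% mitochondrial UMIs were kept, and the cells with the highest Scrublet scores were removed up to 0.8% per 1000 barcodes (64 in aneurysm, 27 in room air, 4 in control). The automatic threshold marked 3 cells in all and was not used. The libraries were clustered together with scanpy 1.11.5, from 2000 variable genes without Spp1, 30 principal components, 15 neighbours and Leiden resolution 1. A cluster took a class name if 3 or more of that class's markers were seen in 10% or more of its cells, with a marker score of 0.6 or more. No other class could have more markers among the cluster's 10 leading genes. A cluster that scored best for dividing cells was left unnamed. The general, resident and lipid-associated macrophage lists shared a class name, as did the classical and nonclassical monocyte lists. No deposited annotation was used, so differences from the study may come from rebuilt names.

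For each class of a library UMIs were summed and scaled to CPM. Levels carry exact Poisson intervals, shares exact Clopper-Pearson intervals and ratios exact conditional binomial intervals. A count of 0 allows up to 3 counts. Genes named are Spp1, members of 5 lists on osteopontin biology, the 15 genes most like Spp1, the 8 highest and 8 lowest correlations in cluster 3, and genes used to name cells. The gene, lists and markers were chosen with earlier results of these data known. The labels state 2685 cells in aneurysm, 1736 in room air and 738 in control. A smoke group without dilatation that the labels count was not analysed here. The formulas of the fold count and of the ranking of genes like Spp1 were tried on simulated data with known changes. The other steps, among them clustering, class naming and the reading of free RNA, were not.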

Additional observations from a re-analysis of the deposited data

Results flagged for a closer look

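The Spp1 ratio of aneurysm over room air was 0.575 in macrophage-like cluster 3 and 2.43 in monocyte-like cluster 8, which caught attention because the same contrast moved opposite ways in 2 groups of cells. With 1 library per group the difference between the clusters was not tested. It also depended on the clustering: 30 aneurysm cells and 4 room air cells of cluster 8 held most of its Spp1, and 19 to 23 of those 30 were macrophage-like in each of 5 other ways of drawing the classes.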

How the results depend on the processing

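No paired analysis was possible because each group is 1 library, and for the same reason no replicate could be left out. The monocyte-like and joined ratios and the subtraction of free RNA as CPM were added after the data were seen. Values follow the order lower resolution (0.5), higher resolution (2), Spp1 kept for clustering, no doublet removal and class from own markers. The macrophage-like ratio of aneurysm over room air (0.618) was 0.719, 0.701, 0.740, 0.693 and 0.717. The monocyte-like ratio (2.53), free RNA included, reversed to 0.925, 0.886, 0.318, 0.971 and 0.884. In each of these settings 19 to 23 of the 30 high aneurysm cells of cluster 8 became macrophage-like. What set the size of each ratio was not tested. The macrophage-like share of Spp1 UMIs was 90.7%, 89.3%, 90%, 89.3% and 93.5% in aneurysm (73.1%) and 87.1%, 84.4%, 84.1%, 86.4% and 91.6% in room air (85.7%). The ratio in the richest cluster (0.575) was 0.658, 0.644, 0.671 and 0.649 in the first 4. Among these 5 settings, the joined ratio (0.657) moved beyond its interval without doublet removal (0.627), and it moved in all 4 settings of the next paragraph.

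With the mean of each cell's CPM the macrophage-like, monocyte-like, richest-cluster and joined ratios were 0.749, 2.97, 0.645 and 0.853. Without the 1% of cells with the most Spp1 the last 3 were 2.99, 0.537 and 0.673. With free RNA subtracted as UMIs per cell the macrophage-like, monocyte-like and joined ratios were 0.631, 3.25 and 0.673. With free RNA subtracted as CPM all 4 were 0.657, 4.43, 0.590 and 0.705. The macrophage-like ratio of room air over control (1239) ran between 672 and 1862. The aneurysm B and T cell level (189 CPM) was 170 CPM at the lower resolution, 170 CPM in B-cell-like cells alone and 164 CPM without the highest 1% of cells.

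Without the control library 4 of the 15 genes most like Spp1 remained. Of list genes past 1.5-fold, 4 were lower for room air over control (2 past 2-fold), and for aneurysm over room air 2 were higher in cluster 3 (1 past 2-fold) and 4 in cluster 8 (0 past 2-fold). With no minimum but 1 UMI, the counts for aneurysm over room air were 1 higher and 4 lower in macrophage-like cells. They were 3 and 4 in cluster 3 and 2 and 4 in cluster 8. The share over all genes was not taken at 1.5-fold or at 1 UMI. These counts show how the number moved and cannot be read as a result about the lists. Other class levels and shares moved beyond their interval in 4 of 66 cases at the lower resolution, 6 of 68 at the higher, and of 70 cases in 4 with Spp1 kept for clustering, 8 without doublet removal and 13 with own markers. Class levels moved in 6 of 35 cases with the mean of each cell's CPM, 10 without the highest 1% of cells, and 24 (UMIs per cell) and 26 (CPM) with free RNA subtracted. Shares of cells moved in 22 of 35 cases at 2 UMIs or more, 28 at 5 or more, 27 thinned to 1000 UMIs and 21 of 32 thinned to 2000 UMIs. Depth limits control most: 2681 UMIs per median cell and 1 UMI in most of its positive cells.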
